A study of Mus musculus with 2 samples.

Results

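The transcripts of 10 genes of the mitotic programme were followed through single mouse fibroblasts sorted by a clock reporter. The members were taken by name, and all 10 of them (Ccna2, Ccnb1, Cdk1, Plk1, Cdc20, Aurka, Aurkb, Bub1, Top2a and Mki67) were found among 33757 features of the count table and passed the filter on low counts that left 18430 genes for testing. The cells were NIH3T3-Rev-VNP1-H2B-iRFP, a derivative of the established mouse fibroblast line NIH3T3 that carries a Venus reporter of the clock repressor Nr1d1 and a near-infrared iRFP fused to histone H2B. All cells shared this genotype and these culture conditions, a dish at 95% confluency about 5 days after plating with no synchronizing treatment. Single live cells were sorted into 2 plates of 384 wells and sequenced by FLASH-seq, which reads full-length transcripts. Each plate held 4 sort gates of 96 cells along Venus fluorescence, called the first (dimmest) to the fourth (brightest) gate here, each in its own 6 well columns, identical between plates, so gate and well position cannot be told apart either. Plate 1 held the high RFP sort alone and plate 2 the low RFP sort alone, so the iRFP level and the plate cannot be told apart; the labels speak of both iRFP bins on a plate, the sorting record of 1 per plate. Each plate was 1 sample, and the labels do not say whether the plates came from separate cultures, so every spread given below may be technical.

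These genes act at successive points of the road into and out of mitosis. Cyclin A2 (Ccna2) works in S phase and G2, and cyclin B1 (Ccnb1) with Cdk1 forms the kinase that starts mitosis. Polo-like kinase 1 (Plk1) and Aurora A (Aurka) act at centrosomes and the spindle, Aurora B (Aurkb) corrects the attachment of chromosomes, and Bub1 is a kinase of the spindle checkpoint. Cdc20 activates the anaphase-promoting complex (APC/C), the ubiquitin ligase that destroys cyclin B at the end of mitosis. Topoisomerase II alpha (Top2a) untangles DNA, and Ki-67 (Mki67) coats mitotic chromosomes and is a standard marker of proliferating cells. Many of these genes are silenced in resting cells by the DREAM complex through a promoter element called CHR, which is often accompanied by CCAAT boxes. Fibroblasts grown to a full layer largely stop dividing.

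The libraries fitted the labelled cell type by its markers. The filter on detected genes, depth and mitochondrial counts kept 762 cells, 383 on plate 1 and 379 on plate 2, with a median of 835930 and 857229 counts per cell. Of 11 fibroblast markers in the table, 10 were detected in at least 50% of cells, led by Col1a1 at 8451 CPM (counts scaled to a common library total), while Lum was found in 3.41% of cells. The 3 epithelial markers in the table together stayed between 25.98 and 44.2 CPM over the 8 sums of a plate and gate, led by Krt14. Krt14 was nonetheless detected in 72.7% of cells and Cdh1 in 43.4%, with Epcam in 0.131%. The 4 endothelial markers together reached at most 2.02 CPM, the 5 leukocyte markers 0.858 CPM and the 2 neural markers 0.166 CPM. The 8 cells with under 300000 counts all sat in the second gate of plate 2.

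RefSeq promoter windows (assembly GRCm38.p6, from 250 bases before to 50 bases after the start site) were at hand for 8 members, all but Ccna2 and Aurkb. On either strand, a CHR sequence, either the letters TTTGAA or else the variant written TTCGAA, lay in 7 of these 8 windows (all but Ccnb1), against 19.2% of 32851 windows of the same length, and CCAAT lay in all 8 against 37.4%. Both elements together were found in 7 of 8 windows, against 7.53% of all windows. Among other mitotic genes 29 of 50 windows held both, and among S phase genes 3 of 27. The 200 bases before the start site follow for 4 genes. Cdk1 and Top2a went together in cells chosen for their Cdc20 or Aurkb, as described further on, but not closely over all cells. The medians of Cdc20 and Mki67 differed less between the kinds of cell compared there. Capitals mark the CHR letters and the CCAAT boxes on either strand, and all 4 genes lie on the minus strand.
Cdk1 (chr10:69352913-69353112, minus strand): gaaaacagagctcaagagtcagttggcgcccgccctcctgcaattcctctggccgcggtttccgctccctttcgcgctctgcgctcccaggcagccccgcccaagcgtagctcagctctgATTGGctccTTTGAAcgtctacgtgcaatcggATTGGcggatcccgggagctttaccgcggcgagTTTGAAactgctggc
Top2a (chr11:99024190-99024389, minus strand): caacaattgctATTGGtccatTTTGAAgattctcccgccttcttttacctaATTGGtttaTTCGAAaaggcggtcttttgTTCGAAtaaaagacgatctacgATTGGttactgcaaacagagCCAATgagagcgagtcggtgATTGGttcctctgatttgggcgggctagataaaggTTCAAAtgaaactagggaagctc
Cdc20 (chr4:118437344-118437543, minus strand): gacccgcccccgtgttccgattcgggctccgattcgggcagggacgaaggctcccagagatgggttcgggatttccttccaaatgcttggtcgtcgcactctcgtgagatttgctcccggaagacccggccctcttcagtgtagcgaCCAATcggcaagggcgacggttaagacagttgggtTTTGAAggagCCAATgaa
Mki67 (chr7:135716380-135716579, minus strand): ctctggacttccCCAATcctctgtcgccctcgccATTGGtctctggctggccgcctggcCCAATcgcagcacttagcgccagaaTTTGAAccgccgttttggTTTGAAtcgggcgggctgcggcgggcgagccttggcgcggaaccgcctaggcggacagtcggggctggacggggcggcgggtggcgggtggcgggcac

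The CHR letters lay at -71 and -15 in Cdk1, at -18 in Cdc20 and at -116 and -98 in Mki67, counted from the start site. Top2a held 4 of them, at -179, -140, -120 and -23, the last on the other strand. A match of this kind describes the letters and not a bound site.

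Counts of the cells of a gate were summed and expressed as CPM. In the mitotic cyclin and kinase pair, the summed level of Cdk1 on plate 1 was 25.3, 40.6, 43.0 and 63.0 CPM from the first to the fourth gate. On plate 2 Cdk1 stood at 22.3, 72.2, 32.7 and 60.0 CPM. Both plates were lowest in the first gate, and plate 2 had its highest level in the second. Ccnb1 was at 15.7, 16.9, 16.4 and 38.4 CPM on plate 1, level over 3 gates and higher in the fourth. On plate 2 Ccnb1 stood at 29.7, 32.3, 11.8 and 40.8 CPM, with its lowest value in the third gate. Ccna2, the cyclin that precedes it, was at 22.8, 21.5, 26 and 42.7 CPM on plate 1. It stood at 44.0, 51.7, 21.2 and 42.1 CPM on plate 2, so that the plates differed most in the first 2 gates.

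The spindle kinases had the same outline on plate 2 but not the same starting point. Plk1 was at 9.74, 11.4, 12.6 and 22.7 CPM on plate 1 and at 15.1, 28.4, 9.25 and 21.2 CPM on plate 2. Aurka was at 8.84, 13.2, 12.8 and 19.4 CPM on plate 1 and at 14.6, 29.0, 7.89 and 19.3 CPM on plate 2. Both kinases were higher in the first gate of plate 2 than in that of plate 1. Aurkb, the kinase of the chromosomal passenger complex, was at 6.36, 14.7, 16.4 and 21.0 CPM on plate 1. On plate 2 it stood at 3.41 CPM in the first gate (exact Poisson 95% interval 3.01 to 3.84), the lowest value of any member, and then at 31.1, 12.9 and 19.2 CPM.

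Cdc20, the activator of the APC/C, ran against Aurkb in the first gate. It was at 41.4, 34.9, 38.3 and 56.7 CPM on plate 1 and at 92.8, 66.8, 36.2 and 92.4 CPM on plate 2, where the first gate was level with the fourth. The checkpoint kinase Bub1 was at 7.56, 8.80, 10.2 and 19.4 CPM on plate 1 and at 14.2, 17.6, 8.68 and 19.0 CPM on plate 2. Of the chromosome proteins, Top2a was at 32.4, 49.8, 59.0 and 84.1 CPM on plate 1 and at 36.3, 117.8, 45.3 and 90.4 CPM on plate 2. Mki67 was at 16.4, 20.6, 24.9 and 45.5 CPM on plate 1 and at 27.0, 32.0, 21.2 and 39.7 CPM on plate 2. The fourth gate was the highest on plate 1 for all 10 members, while on plate 2 it was the highest for Ccnb1, Bub1 and Mki67 only. Per kilobase of annotated exon, Cdc20 was the most abundant member over all cells at 30.4 CPM per kb and Mki67 the least at 2.80 CPM per kb, with the other members between 3.0 and 9.04 CPM per kb.

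**Figure D1:**
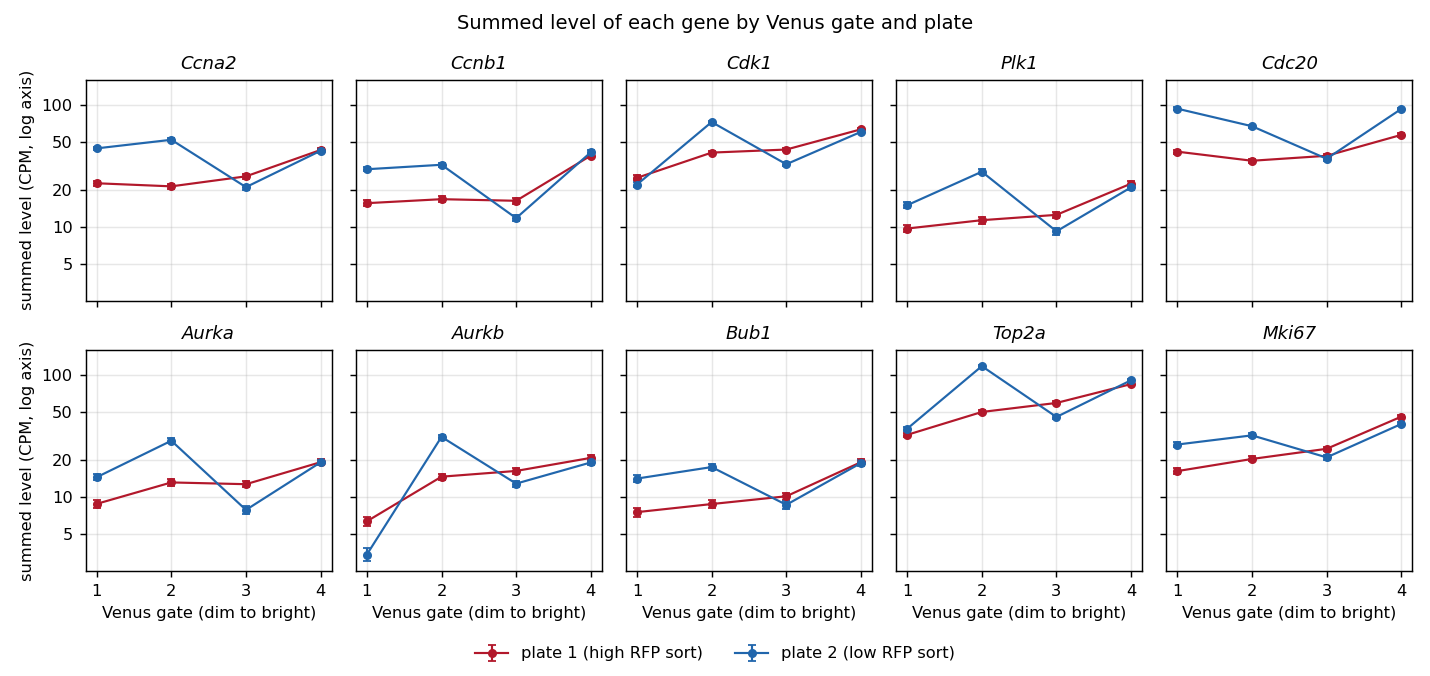
Summed level of each gene (CPM, log axis) against Venus gate, with plate 1 in red and plate 2 in blue. Points are sums over the 94 to 96 cells of a plate and gate. Bars are exact Poisson 95% intervals, which cover counting error of reads only and not the spread between cells. All 10 genes are lower in the third gate of plate 2 than in the gates on either side, and Aurkb starts at 3.41 CPM where Cdc20 starts at 92.8 CPM.

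The linear trend over the 4 gates was tested with edgeR's quasi-likelihood test on the 8 sums, with the plate in the model and Benjamini-Hochberg adjustment over all genes tested. Aurkb, Cdk1 and Mki67 rose toward bright Venus, which is 3 of 10 members, against 15.4% of all genes called in either direction (6.78% higher and 8.64% lower). Aurkb rose by 0.53 ± 0.12 log2 per gate (SE, adjusted p = 0.0267), Cdk1 by 0.34 ± 0.08 (adjusted p = 0.0270) and Mki67 by 0.27 ± 0.07 (adjusted p = 0.0465). Top2a had nearly the slope of Cdk1 at 0.33 ± 0.10 log2 per gate and missed the threshold (adjusted p = 0.0604 by edgeR). The other 6 slopes lay between 0.01 for Cdc20 and 0.21 for Bub1, with adjusted p of 0.179 or more by edgeR. The median slope of the members was 0.19 log2 per gate, against 0.0005 over all genes tested. Library totals without TMM turned the majority of all calls from 44.0% higher to 57.8% higher and called the same 3 members.

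The 3 calls were sensitive to single gates. Without the first gate the slope of Aurkb was -0.10 and that of Cdk1 0.05 log2 per gate, while that of Mki67 was 0.33 (adjusted p = 0.104 by edgeR). Without the fourth gate the slope of Mki67 was 0.07, while that of Aurkb was larger at 0.79 (adjusted p = 0.105 by edgeR) and that of Cdk1 was 0.33 (adjusted p = 0.241), neither past the threshold. Mki67 also missed it without the second gate (0.27, adjusted p = 0.0555 by edgeR). Left out singly, the sum of the first gate of plate 2 took the slope of Aurkb to 0.39 (adjusted p = 0.115 by edgeR) and that of Cdk1 to 0.29 (adjusted p = 0.131), and the sum of the fourth gate of plate 1 took that of Mki67 to 0.19 (adjusted p = 0.260). Without the sum of the third gate of plate 1, Aurkb had 0.51 (adjusted p = 0.0533 by edgeR) and Mki67 0.25 (adjusted p = 0.0589). Top2a had a slope of 0.04 without the first gate. It passed in 8 alternative settings, among them no filter on low counts (adjusted p = 0.00736 by edgeR), thinned cells (0.0224) and the fit without the third gate (0.0336). It did not pass in 18 others, among them DESeq2 (adjusted p = 0.0854) and no replicate block (adjusted p = 0.0841 by edgeR). Thinning and the left-out gates were chosen after seeing the data. With the gate number as a straight line no member passed by edgeR (2 had an unadjusted p under 0.05, Cdk1 and Mki67). Within a plate the gate number was fitted as a straight line, with 225 of 18430 genes called on plate 1 and 4 on plate 2. Within plate 1, Cdk1 rose by 0.38, Top2a by 0.41 and Mki67 by 0.45 log2 per gate (adjusted p = 0.0447, 0.0220 and 0.0372 by edgeR). Within plate 2 these slopes were 0.25, 0.20 and 0.11, and no member passed (0 at an unadjusted p under 0.05).

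Differences between any of the 4 gates, with no order assumed, were called for 2 of 10 members, Cdk1 (adjusted p = 0.0450 by edgeR) and Aurkb (adjusted p = 0.0458), against 8.37% of all genes. No single step between neighbouring gates was called for a member by edgeR, against 0.271% of all genes from the first to the second gate (0.147% higher, 0.125% lower), 0.0651% from the second to the third (0.0434% higher, 0.0217% lower) and 0.26% from the third to the fourth (0.141% higher, 0.119% lower). At an unadjusted p under 0.05 the steps held 3, 3 and 7 members, and 2708, 1660 and 2909 of the 18430 genes. The largest step of all was that of Aurkb from the first to the second gate, at 2.23 ± 0.40 log2 (adjusted p = 0.0729 by edgeR), followed by Ccnb1 from the third to the fourth at 1.42 ± 0.30 (adjusted p = 0.0991).

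A sum alone does not tell fewer positive cells from less RNA per cell. Each level was therefore split into the share of cells with at least 1 count and the level per positive cell. The latter is the summed CPM divided by that share. As a mean, it is also lower where fewer of the positive cells express strongly, so it does not alone show less RNA per cell. On plate 1 the first and the fourth gate differed mostly in share. Mki67 was detected in 18.95% of cells of the first gate (exact Clopper-Pearson 95% interval 11.6 to 28.3) and in 49.0% of the fourth (38.6 to 59.4), with 86.3 and 93.0 CPM per positive cell. Bub1 was detected in 9.47% (4.42 to 17.2) and 27.1% (18.5 to 37.1) of cells, with 79.8 and 71.5 CPM per positive cell. Over the members, the median difference between these gates on plate 1 was 0.91 log2 for the share and 0.11 for the level per positive cell. On plate 2 it was 0.39 and -0.17.

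Cdk1, Top2a and Aurka differed more in the level per positive cell, on both plates. Cdk1 was detected in 90.5% to 96.9% of cells of every gate, so its share could hardly differ, and its level per positive cell was 27.6 CPM in the first and 69.5 CPM in the fourth gate of plate 1, and 24.6 and 64.9 CPM on plate 2. Top2a, found in 62.1% to 74.5% of cells, had 52.1 and 113.7 CPM per positive cell on plate 1, and 50.7 and 121.4 CPM on plate 2. For Aurka these levels were 27.1 and 47.6 CPM on plate 1 and 37.5 and 50.4 CPM on plate 2. The median positive cell differed far less than these means, from 13.9 to 17.5 CPM for Cdk1 on plate 1 and from 17.3 to 16.9 CPM on plate 2. Thinned to 300000 counts per cell, the plate 1 median over members was 1.01 log2 for the share and -0.12 for the level.

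On plate 2 the third gate stood below both its neighbours for all 10 members, and the level per positive cell was lower there for all 10, while the share was lower for some members and higher for others against the second gate. From the second to the third gate the median difference was -1.28 log2 in the summed level, -0.09 in the share and -1.14 in the level per positive cell. The share was higher in the third gate for 4 of 10 members and lower for the others. Aurkb was detected in 34.0% of cells of the second gate and 39.6% of the third, with 91.5 and 32.7 CPM per positive cell. Cdc20 was detected in 60.6% and 75.0% of cells, with 110.1 and 48.3 CPM per positive cell. Both were among the 4 with a higher share. Ccna2 was detected in 38.3% and 25% of cells, with 135.0 and 84.9 CPM per positive cell, and Aurka in 43.6% and 33.3%, with 66.4 and 23.7 CPM. These levels are means, and the median positive cell did not follow them throughout. It was higher in the third gate for Ccna2, Cdk1, Aurka, Top2a and Mki67, and lower for the other members. It stood at 17.2 and 20.2 CPM for Cdk1, and at 124.0 and 27.35 CPM for Bub1. With positive cells counted from 10 CPM, all 10 levels were again lower in the third gate. Aurkb then differed mostly in share (18.1% and 8.33% of cells, with 172.2 and 155.2 CPM). So did Ccnb1, by -0.94 log2 in share and -0.51 in level, and Plk1 differed equally in both (-0.81 and -0.81). From the third to the fourth gate both parts were higher, the share by a median of 0.42 log2 (9 of 10 members) and the level by 0.75 (10 of 10). On plate 1 the step from the second to the third gate had a median of 0.15 log2 in the summed level, with 8 of 10 members higher in the third gate. Over all genes tested, the median of this step was 0.01 log2 on plate 1 and -0.01 on plate 2.

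**Figure D2:**
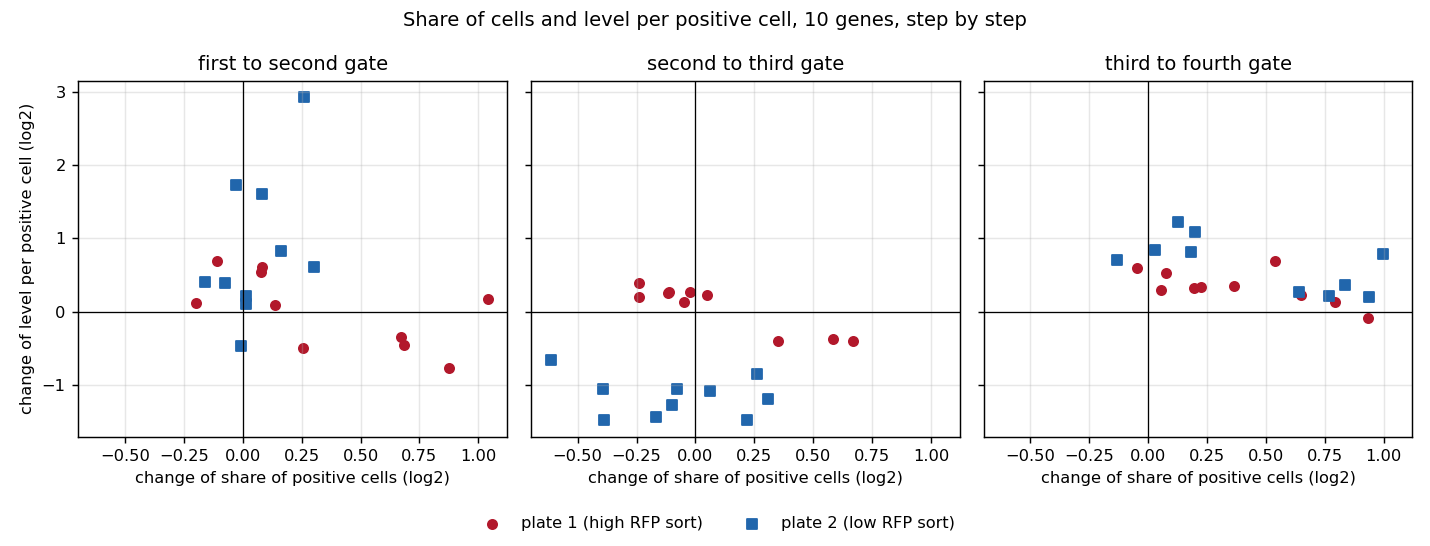
Difference between neighbouring gates in the share of positive cells (x axis, log2) and in the level per positive cell (y axis, log2) for 10 genes, with plate 1 as red circles and plate 2 as blue squares. From the second to the third gate the plate 2 points all lie below 0 on the y axis and on both sides of 0 on the x axis, and the highest point of the first panel is Aurkb on plate 2 at 2.93.

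Against the mean log2 level of its 2 neighbours, the third gate of plate 2 had a median of -1.13 log2 over the members, from -1.62 for Ccnb1 to -0.75 for Mki67. On plate 1 the same value was -0.27, from -0.63 for Ccnb1 to -0.10 for Aurkb, also below 0 for all 10. Over all genes tested the median was -0.02 on plate 2, with 53.35% of genes below 0, and -0.0035 on plate 1, with 50.8% below 0. Whether the plates differed in the third gate more than in the other gates was tested with a term for that sum alone, chosen after the values were seen, which left 2 residual degrees of freedom and compares these plates rather than the sorts. No member was called by edgeR and 0% of all genes were, with 1032 genes and 3 members at an unadjusted p under 0.05. The estimates were below 0 for all 10 members, with a median of -0.92 log2, against 0.0043 over all genes tested. This sum was chosen for its low member levels, so the sign follows from the choice and is no support. The members were counted largely in the same few cells, so their signs are not separate observations. The smallest p was that of Cdc20 (-0.99 ± 0.17, adjusted p = 0.846 by edgeR). The well columns were uneven in this gate and in its neighbours. With all members summed, single columns of the third gate of plate 2 ran from 60.6 to 582 CPM. Those of the second gate ran from 36.4 to 1042 CPM and those of the fourth from 54.7 to 965 CPM. Of the columns of the third gate, 5 of 6 lay below the mean of the neighbouring gates, as did 4 of 6 on plate 1. No difference in slope between the plates was called by edgeR (0 members and 0% of all genes called, 1 member and 638 genes at an unadjusted p under 0.05). The differences were above 0, plate 1 minus plate 2, for all 10 members, with a median of 0.33 log2 per gate against 0.0004 over all genes. Ccna2 led at 0.41 ± 0.21 log2 per gate, and Mki67 at 0.34 ± 0.15 had the smallest p (0.0498 unadjusted, 1.00 adjusted by edgeR). The difference of Aurkb, 0.14, was below 0 with limma voom and without the brightest gate.

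Most of these counts came from few cells. Cells with at least 5 of the 10 members at 10 CPM or more numbered 44 of 383 on plate 1 (11.5%, exact 95% interval 8.47 to 15.1) and 60 of 379 on plate 2 (15.8%, 12.3 to 19.9), and they held 87.9% and 89.2% of all member counts. At most 2 members were at that level in 302 cells of plate 1 and 258 of plate 2, 3 or 4 members in 37 and 61 cells, and 5 or 6 in 8 and 11 cells. On plate 1 the share of cells with at least 5 members was 6.32% (2.35 to 13.2), 7.29% (2.98 to 14.4), 9.38% (4.38 to 17.0) and 22.9% (14.95 to 32.6) from the first to the fourth gate. On plate 2 it was 12.6% (6.70 to 21.0), 14.9% (8.39 to 23.7), 9.38% (4.38 to 17.0) and 26.6% (18.0 to 36.7). The fourth gate had the highest share on both plates, and the intervals cover counting error only. The depth of these cells was that of the others, with a median of 834942 against 837006 counts on plate 1 and 858742 against 856835 on plate 2.

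The gates differed in how complete the set was. All 10 members were at 10 CPM or more in 3, 4, 5 and 9 cells of plate 1 and in 5, 10, 3 and 8 cells of plate 2, from the first to the fourth gate. Cells with 5 to 9 members numbered 3, 3, 4 and 13 on plate 1 and 7, 4, 6 and 17 on plate 2, so partial sets were most frequent in the fourth gate of both plates. The third gate of plate 2 had the most cells with 3 or 4 members, 25 of 96, against 7 to 13 in the other 7 gates.

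**Figure D3:**
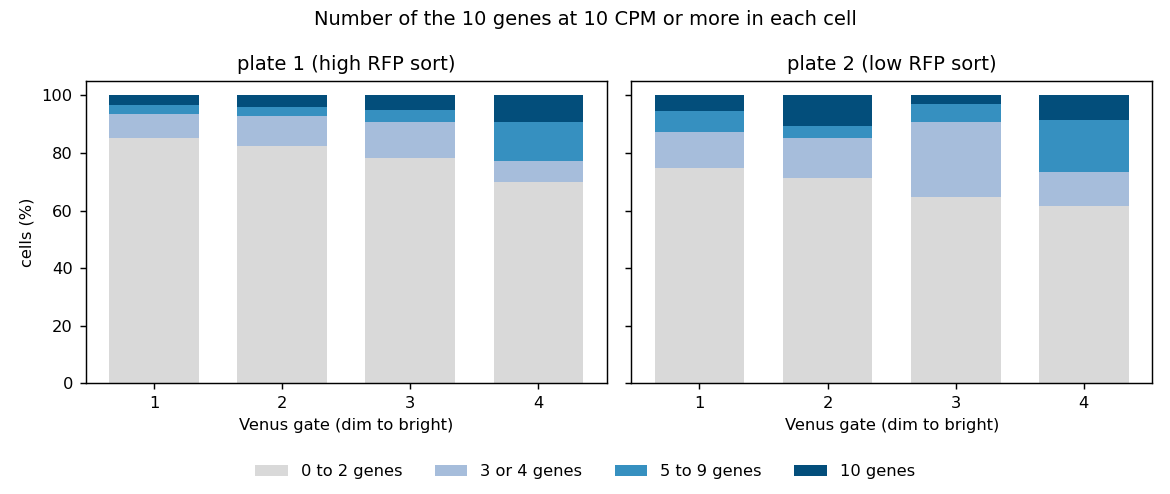
Share of cells (%) by the number of the 10 genes at 10 CPM or more, per Venus gate, with plate 1 on the left and plate 2 on the right. The third gate of plate 2 holds the fewest cells with all 10 genes (3 of 96, the same number as the first gate of plate 1) and the most with 3 or 4 (25 of 96).

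Within the cells that expressed these genes strongly, Aurkb separated from Cdc20. Of 71 cells with Cdc20 or Aurkb at 100 CPM or more, 35 had Aurkb at 50 CPM or more and 36 had less. The limit was set after the values were seen and describes a range, not a cell type: 5 of the 71 cells lay between 30 and 100 CPM, the highest below the limit at 40.3 CPM and the lowest above it at 51.6 CPM. Both genes chose these cells, and a cell of low Aurkb had to hold Cdc20, so their levels are a description of the choice. Cdc20 had a median of 457.6 CPM in the cells with high Aurkb and 431.7 CPM in those with low Aurkb on plate 1, and 491.8 and 502.0 CPM on plate 2. Top2a had a median of 925.7 against 82.5 CPM on plate 1 (ratio 11.2) and 1065 against 93.0 CPM on plate 2 (ratio 11.4). Cdk1 had 576 against 53.1 CPM (ratio 10.8) and 631 against 46.4 CPM (ratio 13.6). Between these extremes, the ratio was 3.35 and 4.95 for Aurka, 3.96 and 2.35 for Ccna2, 3.35 and 2.61 for Plk1, 2.44 and 2.38 for Ccnb1, 2.06 and 1.29 for Bub1 and 1.58 on both plates for Mki67. Every cell of low Aurkb still had at least 6 of the 10 members at 10 CPM or more. The other 691 cells had a median of 13.8 CPM for Cdk1, 6.02 CPM for Top2a and 3.84 CPM for Cdc20, and of 0 for the other 7 members.

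**Figure D4:**
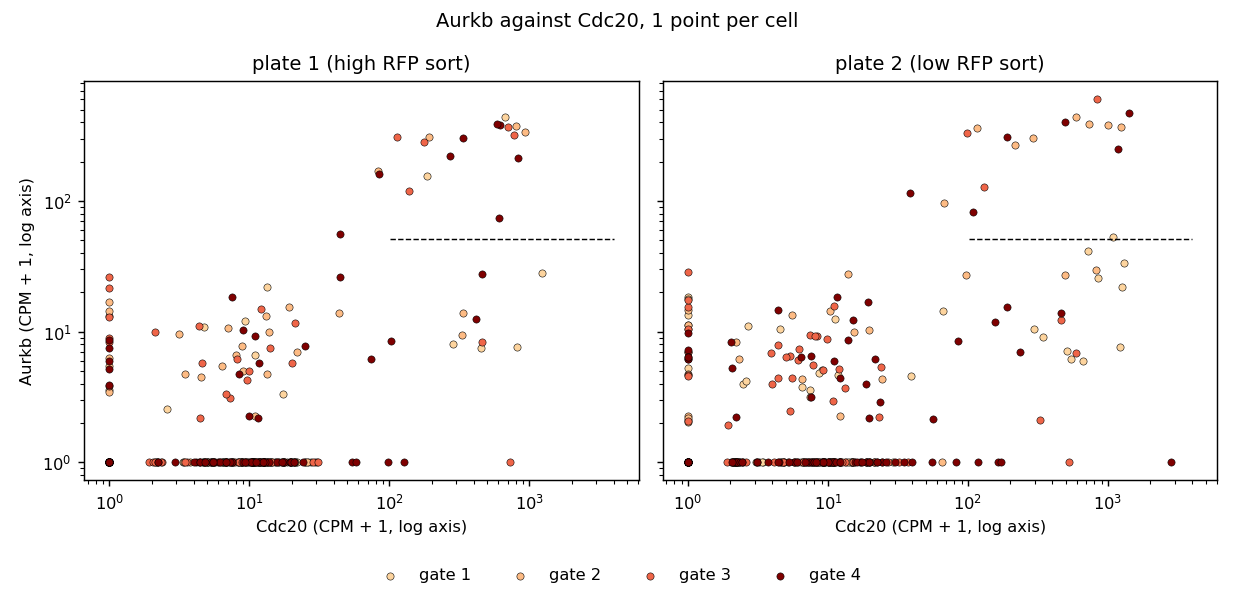
Aurkb against Cdc20 in single cells (CPM + 1, log axes), 1 point per cell, coloured by Venus gate from pale (the first) to dark (the fourth), with plate 1 on the left and plate 2 on the right; the dashed line marks 50 CPM of Aurkb. Among cells with Cdc20 above 100 CPM, few points lie near the line, and of 11 points of the first gate of plate 2 at 100 CPM or more of either gene, 10 lie below it.

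Other genes, chosen after the values were seen, were compared across the same division. Over both plates the cells with high Aurkb had a median of 623 CPM of Ube2c, the ubiquitin-conjugating enzyme of the APC/C, and 605 CPM of Birc5 (survivin, a partner of Aurora B), against 78.4 and 242 CPM in the cells with low Aurkb. Cenpa, the histone of centromeres, stood at 329 and 445 CPM, and Racgap1, a protein of the cleavage furrow, at 518 and 426 CPM. The S phase genes Rrm2 and Pcna were at 134 and 61.8 CPM in the cells with high Aurkb, at 32.7 and 20.6 CPM in those with low Aurkb, and at 0 and 13.4 CPM in the remaining cells. Forward scatter, which relates to cell size, had a median of 72016444 against 53821400 units on plate 1 and of 60549536 against 46842340 units on plate 2, with overlapping ranges. Relative to the median of their own gate, 14 of 18 and 13 of 17 cells with high Aurkb were above it, and 7 of 12 and 10 of 24 of those with low Aurkb. Total counts were alike, with medians of 851301 and 836516.

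**Figure D5:**
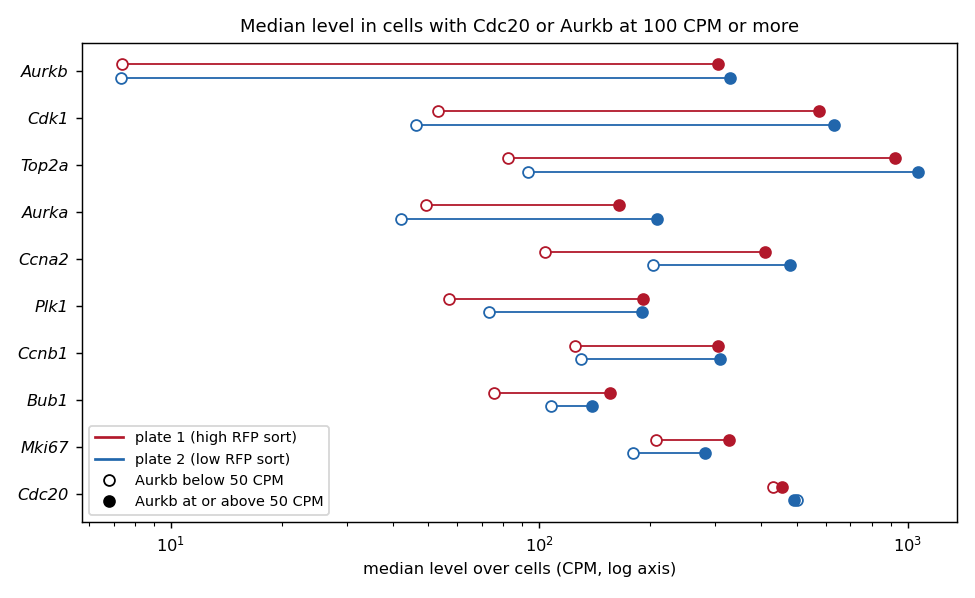
Median level of each gene (CPM, log axis) in cells with Cdc20 or Aurkb at 100 CPM or more, for cells with Aurkb below 50 CPM (open) and at or above it (filled), with plate 1 in red (12 and 18 cells) and plate 2 in blue (24 and 17 cells); the limit uses Aurkb itself. Cdk1 and Top2a differ by more than 10 times on both plates, and the Cdc20 points nearly coincide.

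The gates held these cells in different proportion. From the first to the fourth gate, cells with high Aurkb numbered 2, 4, 5 and 7 on plate 1 and 1, 7, 3 and 6 on plate 2. Those with low Aurkb numbered 4, 2, 2 and 4 on plate 1 and 10, 2, 4 and 8 on plate 2. In the first gate of plate 2, low Aurkb was thus found in 10.5% of 95 cells (exact 95% interval 5.16 to 18.5) and high Aurkb in 1.05% (0.0267 to 5.73), and in its second gate these shares were 2.13% (0.259 to 7.47) and 7.45% (3.05 to 14.7). That is where the summed Aurkb was 3.41 and then 31.1 CPM, while Cdc20 was 92.8 and then 66.8 CPM. The cells were chosen by these genes, so the sums rest largely on the same counts and are no separate result. Pooled over plates, the first gate held 3 cells of high and 14 of low Aurkb among 190. Over both plates, 8 cells of the third gate with high Aurkb had a median of 156 CPM of Cdc20, 97.5 CPM of Ccnb1 and 281 CPM of Rrm2, and 11 such cells of the second gate had 588, 342 and 145 CPM. Low Aurkb cells of the fourth gate had lower medians of all 10 members than those of the first, for example a median of 180 against 688 CPM of Cdc20 and 95.7 against 360 CPM of Ccna2 (12 and 14 cells). No test was made of these counts, since cells are not replicates. A cell of the fourth gate of plate 2 had 2816 CPM of Cdc20, the highest of all, with Aurkb, Top2a and Birc5 at 0 counts among 828743. The same cell held 260.6 CPM of Cdk1, 680.5 CPM of Ccnb1 and 749.3 CPM of Ube2c.

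Between plates, all 10 members were lower on plate 1 over the whole plate, with ratios from 0.596 for Cdc20 (exact binomial 95% interval 0.584 to 0.609) to 0.929 for Cdk1 (0.907 to 0.951) and a median of 0.776. The ratios use library totals, and no ratio over all genes is given, so a general offset between the plates is not set apart. TMM factors ran from 0.957 to 1.01 on plate 1 and from 1.01 to 1.04 on plate 2. The ratio of the plates differed between gates. Its median over members was 0.606 in the first gate, 0.486 in the second, 1.29 in the third and 1.02 in the fourth. In the third gate 0 members were lower on plate 1, with ratios from 1.06 for Cdc20 (1.01 to 1.11) to 1.62 for Aurka (1.47 to 1.79). Aurkb was the exception of the first gate, at 1.87 (1.61 to 2.18), with Cdk1 at 1.13 (1.06 to 1.21). These intervals cover counting error of reads within 2 plates, and the iRFP sort, the plate and its handling cannot be told apart. Within a plate, iRFP fluorescence had Spearman correlations with the members between -0.05 and 0.08 over 383 cells of plate 1 and between -0.07 and 0.05 over 379 cells of plate 2.

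Venus fluorescence itself was weakly related to the members cell by cell, with correlations from 0.04 for Cdk1 to 0.23 for Mki67 on plate 1 and from -0.03 for Aurka to 0.18 for Cdc20 on plate 2. Ranked within gates, the range was -0.03 to 0.05 on plate 1 and -0.01 to 0.07 on plate 2. Forward scatter had a median correlation of 0.13 with the members on plate 1 and 0.05 on plate 2, and total counts had 0.03 on both. Cells of a plate share their library preparation, and these values are descriptions.

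Among the members, Spearman correlations over cells were positive for all 45 pairs, with medians of 0.384 on plate 1 and 0.416 on plate 2. Plk1 and Bub1 were the closest pair (0.759 and 0.712), followed by Ccnb1 and Bub1 (0.670 and 0.736). Cdk1, which was detected in nearly every cell, had the lowest, with Ccna2 (0.259 and 0.255) and Cdc20 (0.193 and 0.335). In the 30 and 41 cells chosen above for their Cdc20 or Aurkb, Cdk1 had 0.895 and 0.851 with Top2a, and 0.270 and 0.234 with Cdc20. The choice by these genes can itself set such pairs apart, so this contrast describes the chosen cells only. Over all cells Cdk1 had 0.253 and 0.306 with Top2a, near its values with Cdc20. Outside the members, 8921 genes were compared with the mean rank of the 10 members. The closest were Nuf2, a kinetochore protein (mean correlation 0.573 over plates), Hmmr, a spindle protein (0.567), and Pclaf, a partner of PCNA (0.554), followed by Nusap1, Tk1, Mcm5, Aspm, Dlgap5, Birc5 and Kif20a down to 0.516. For single members the closest gene was Hmmr for Ccna2, Ccnb1 and Cdc20, Aspm for Cdk1, Plk1 and Top2a, Nek2 for Aurka and Aurkb, and Nuf2 for Bub1 and Mki67, with mean correlations from 0.386 (Cdk1) to 0.777 (Bub1).

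Of 56 other mitotic genes, 7 rose and 1 fell along the Venus gates by edgeR, against the 6.78% and 8.64% of all genes called in each direction, with a median of 0.12 log2 per gate. The cytokinesis protein Prc1 rose by 0.58 ± 0.10 log2 per gate (adjusted p = 0.00888 by edgeR), the spindle protein Nusap1 by 0.57 ± 0.11 (adjusted p = 0.0144) and Ube2c by 0.41 ± 0.08 (adjusted p = 0.0159). Prc1 was at 8.10, 23.4, 18.4 and 38.1 CPM on plate 1 and at 6.60, 37.5, 9.91 and 37.4 CPM on plate 2, lowest in the first gate of both plates as Aurkb was. Cks1b, a small subunit of cyclin-dependent kinases, fell by 0.16 on the log2 scale per gate (adjusted p = 0.0168 by edgeR), from 101.7 to 76.9 CPM on plate 1 and from 108.4 to 83.9 CPM on plate 2. The abundant Bub3 (0.06 log2 per gate) and Smc4 (-0.03) missed the threshold. In the third gate of plate 2, 55 of these 56 genes lay below the mean of the neighbouring gates, with a median of -0.83 log2, where the members had -1.10 on the same scale of TMM-normalized log2 CPM. On plate 1 these were 45 of 56 genes, with a median of -0.21.

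The 14 core subunits of the APC/C, the ligase that Cdc20 activates, stood at median levels of 6.05 to 6.21 log2 CPM in all 8 sums. Anapc16 fell by 0.14 on the log2 scale per gate (adjusted p = 0.00695 by edgeR) and Cdc23 fell by 0.13 (adjusted p = 0.0198), and no other subunit passed, with Cdc16 at -0.07, Anapc5 at 0.02, Anapc2 at 0.01 and Anapc11 at -0.01 log2 per gate. Of 30 S phase genes 16 rose and 0 fell by edgeR, against 6.78% and 8.64% of all genes (23 and 1 at an unadjusted p under 0.05, against 2540 and 2954 of 18430), with a median of 0.22 log2 per gate. Gins2 rose by 0.41 ± 0.04, Mcm3 by 0.38 ± 0.05 and Mcm4 by 0.26 ± 0.03 log2 per gate (adjusted p = 0.00152, 0.00309 and 0.00239 by edgeR), all parts of the replication machinery. Rrm1 (0.21) and Slbp (-0.06) missed the threshold. In the third gate of plate 2 the S phase genes stood at a median of -0.25 log2 with 23 of 30 below 0, and on plate 1 the median was 0.05. In the test of the plates' difference in the third gate the median estimate was -0.18 log2 for S phase genes and -0.92 for the members, a comparison of lists that was not tested.

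Some counts are uncertain because other genes share sequence with the members. In the GENCODE M21 annotation, Ccna2 overlaps Exosc9 on the opposite strand over 863 bases, and Exosc9 had 23366 counts against 21603 of Ccna2. Cdc20 overlaps Elovl1 over 53 bases. Whether strand was used in counting is not given in the sources used here. The pseudogene Ccnb1-ps matches Ccnb1 at 99.2% identity and had 201 counts against 16018, Gm7856 matches Cdc20 at 93.7% and had 132 against 36529, and Plk-ps1 matches Plk1 at 93.5% and had 74 against 10333.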

How the data were processed

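FLASH-seq libraries of 768 single cells on 2 plates were used. The authors deposited raw counts per gene and cell, whole numbers that were not normalized, and STAR 2.7.11a, SAMtools, bedtools, HTSeq and the build GRCm39 (mm39) are named per the submitters' processing notes. Annotation and strand setting are not given in the sources used here, nor is any use of molecular identifiers. Intervals on summed counts therefore treat each read as independent, and cover neither amplification nor the spread between cells. Fluorescence and scatter are intensity values in arbitrary units from the deposited sorting record, which also gives the gate, a row and column score per well (deposited) and the RFP sort; median Venus intensity rises from the first to the fourth gate on both plates. The deposited record's other columns were used only to join cells.

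Cells with at least 1000 genes, 0.1 of the plate median total and at most 25% mitochondrial counts were kept (762). Doublets were not called, since single cells were sorted into wells. Counts were summed per plate and gate (8 sums of 76042157 to 86612194 counts) and fitted with edgeR 4.0.16 in R 4.3.3 (filterByExpr, TMM, gate as factor plus plate; limma 3.58.1 and DESeq2 1.42.0 as alternatives). The linear contrast gives log2 change per gate, SE came from the F statistic, and the threshold was an adjusted p under 0.05. The scripts were tested on simulated data. Exon lengths, overlaps and symbols came from GENCODE M21, with copies found by BLAST 2.17.0. The members and gene lists were chosen with earlier results of these data known. Named genes were the 10 members, for each list the 3 genes of smallest trend p and the 3 of largest mean, and the genes closest to the members by Spearman correlation over cells, among those with a mean of at least 3 log2 CPM.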

Additional observations from a re-analysis of the deposited data

How the results depend on the processing

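Genes called along the gates numbered 2843, and 1683 with no replicate block or 1858 with the gate number as a linear covariate. Leaving out a gate or sum gave 376 to 2467 calls. With a plate left out, where the gate number was fitted as a straight line since the gate factor leaves no residual degrees of freedom, there were 4 (plate 2 alone) and 225 (plate 1 alone), to be read against the 1858. Of the members 3 were called, 2 with no replicate block (Mki67 had an adjusted p of 0.0703 by edgeR), 0 with the linear covariate, and 0 to 5 over the left-out plates, gates and sums. None was called without plate 1, the first or the fourth gate, or either sum of the fourth gate, and 1 without either first-gate sum or the third-gate sum of plate 1. For a difference between any gates 2 members were called, against 8.37% of all genes. The member count was 7 without a filter on low counts, 6 in thinned cells and 0 with no replicate block. For the step from the first to the second gate the counts were 0, 3 without the filter and 2 thinned, and for that from the third to the fourth 0, 4 and 3. The share of all genes called in these alternative settings is not given for the any-gate and step tests. Their member counts therefore show how the settings differ and are no result about the members. Thinning, left-out gates and sums, and the settings of the any-gate and step tests were chosen after seeing the data.

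The slope of Cdc20, 0.01, was -0.0121 with no replicate block, -0.0083 in thinned cells and -0.0736 without the cell with the most Cdc20. Over left-out plates, gates and sums the slopes ranged from -0.36 to 0.26 for Cdc20, -0.0709 to 0.31 for Aurka, -0.19 to 0.28 for Ccna2, -0.0569 to 0.36 for Plk1, -0.0592 to 0.41 for Bub1, -0.30 to 0.37 for Ccnb1, -0.10 to 0.79 for Aurkb and 0.04 to 0.41 for Top2a. The slope difference of Aurkb was -0.0181 with limma voom and -0.24 without the brightest gate. From the first to the fourth gate of plate 1 the median share difference, 0.91 log2, was 1.30 when positive cells needed 10 CPM, and that of the level, 0.11, was -0.12 in thinned cells. The third gate against its neighbours, all members summed, was -0.25 log2 on plate 1 (single well columns -3.24 to 0.87) and -1.15 on plate 2 (-2.93 to 0.34). The cause of these differences was not tested.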
